A study of Rattus norvegicus with 9 samples.

Results

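The genes described are 9 that make and remove superoxide in the rat heart: 6 subunits of the NADPH oxidases (Cybb, Nox4, Cyba, Ncf1, Ncf4 and Rac1) and the 3 superoxide dismutases (Sod1, Sod2 and Sod3). The rule takes them by name from 22608 genes measured in 9 RNA-seq libraries of the left ventricle, and no measured value enters it, although they were proposed with earlier results of these data known. All 9 passed the filter on low counts. The rats were of the Sprague-Dawley strain, with an age given as 8 weeks plus 28 days of treatment in every group. One group of 3 libraries received saline for 28 days, one of 3 received angiotensin II (Ang II), the pressor peptide of the renin-angiotensin system, and one of 3 received Ang II with sodium butyrate (NaBu), the salt of a fatty acid made by gut bacteria and an inhibitor of histone deacetylases. The series title names myocardial fibrosis induced by Ang II, with and without sodium butyrate, as its subject. The labels give no dose, no route and no group on NaBu alone. Whether each library is a separate animal is not labelled, so p-values measure only the spread between these samples, which may be technical.

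NADPH oxidases are membrane enzymes that pass electrons from NADPH to oxygen. The Cybb enzyme (NOX2) is assembled on demand from membrane and cytosolic subunits and releases superoxide, whereas Nox4 is active without the cytosolic subunits and releases mainly hydrogen peroxide. Superoxide dismutases convert superoxide to hydrogen peroxide and oxygen in the cytosol (Sod1), the mitochondrial matrix (Sod2) and the extracellular space (Sod3). Ang II is a well-known stimulus of the assembled NADPH oxidase in heart and vessel, an activity that RNA levels do not measure.

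Promoters were taken from RefSeq (rat build GRCr8), which held 6 of the 9 genes. Each runs from 250 bases before the annotated start to 50 bases after it. The promoters of Sod2, Ncf1 and Sod1, the genes whose levels followed each other most closely across the libraries, are shown beside that of Nox4, whose estimate went the other way. Capitals mark matches, on either strand, to the GC box GGGCGG, the CCAAT box CCAAT, the TATA box TATAAA, the core of the antioxidant response element TGACNNNGC and the core of the PU.1 motif GAGGAA. Bases are given 5′ to 3′ on the strand of the gene.
Sod2, chr1:50050119-50050418, minus strand, is followed by Ncf1, chr12:28121635-28121934, plus strand, Sod1, chr11:42942573-42942872, plus strand, and Nox4, chr1:150313639-150313938, plus strand.
Sod2: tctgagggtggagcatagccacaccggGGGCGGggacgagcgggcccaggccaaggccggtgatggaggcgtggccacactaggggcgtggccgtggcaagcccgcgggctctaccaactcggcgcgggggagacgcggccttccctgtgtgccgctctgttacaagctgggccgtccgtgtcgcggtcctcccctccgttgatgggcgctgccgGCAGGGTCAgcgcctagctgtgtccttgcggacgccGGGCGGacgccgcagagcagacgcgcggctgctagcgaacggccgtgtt
Ncf1: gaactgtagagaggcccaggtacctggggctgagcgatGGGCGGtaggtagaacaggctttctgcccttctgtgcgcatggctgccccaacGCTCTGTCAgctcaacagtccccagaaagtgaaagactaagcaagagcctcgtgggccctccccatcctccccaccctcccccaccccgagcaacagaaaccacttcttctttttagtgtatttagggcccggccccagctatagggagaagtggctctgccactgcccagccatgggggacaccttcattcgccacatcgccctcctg
Sod1: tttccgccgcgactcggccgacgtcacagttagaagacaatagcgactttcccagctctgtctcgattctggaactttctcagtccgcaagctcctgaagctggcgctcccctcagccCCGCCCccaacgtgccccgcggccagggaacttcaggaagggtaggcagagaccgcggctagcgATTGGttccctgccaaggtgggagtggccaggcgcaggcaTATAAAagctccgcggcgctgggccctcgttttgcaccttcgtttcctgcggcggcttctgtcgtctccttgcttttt
Nox4: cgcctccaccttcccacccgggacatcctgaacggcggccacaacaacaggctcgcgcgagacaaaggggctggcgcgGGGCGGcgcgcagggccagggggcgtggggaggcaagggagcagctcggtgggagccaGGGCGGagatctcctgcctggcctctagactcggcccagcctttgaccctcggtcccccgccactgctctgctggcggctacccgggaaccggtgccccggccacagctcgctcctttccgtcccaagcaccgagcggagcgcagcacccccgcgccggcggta
The Sod2 promoter held 2 GC boxes and 1 core of the antioxidant response element, and Ncf1 held 1 of each. The Sod1 promoter held 1 GC box, 1 CCAAT box and 1 TATA box, with the TATA box starting 28 bases before the start site. The Nox4 promoter held 2 GC boxes and none of the other motifs. Of 33469 RefSeq promoters of this length, 33.1% held a GC box, 37.5% a CCAAT box, 14.2% a TATA box, 12.1% the antioxidant response element core and 27.6% the PU.1 core. The GC content was 72.0% for Sod2 and 73.0% for Nox4, against a median of 51.7% over all promoters. A promoter that stood out the other way was that of Cybb, at 35.7% GC with 2 CCAAT boxes, 1 PU.1 core and no GC box. These letters describe the windows and were not tested as binding sites.

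Total estimated counts per library ranged from 29284780 to 49865446, and levels are given as CPM, counts scaled to a common library total after TMM adjustment (trimmed mean of M-values). CPM values are not per length, so levels are compared between libraries within a gene and not between genes. Across genes, replicate libraries correlated with r from 0.963 to 0.976 in saline, 0.98 to 0.984 in Ang II and 0.984 to 0.986 in Ang II+NaBu. The 10 markers listed for ventricular cardiomyocytes were all detected and summed to between 50319 and 82437 CPM over the 9 libraries. Saline replicate 2 stood apart, with the lowest ventricular sum and an atrial marker sum of 6039 CPM against 111 to 361 CPM in the other 8 libraries. Saline replicate 3 came next for the atrial markers Myl7 (27.2 CPM), Bmp10 (22.2 CPM), Myl4 (17.3 CPM) and Sln (4.01 CPM). The remaining libraries held at most 3.98, 0.693, 5.03 and 0.341 CPM of these. Saline replicate 3 was not next for Dkk3, Tbx5, Nr2f1 and Nr2f2, also on the atrial list. The Ang II+NaBu libraries are named by the numbers 2, 4 and 6 that their columns carry.

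None of the 9 genes was called in any of the 3 comparisons by edgeR's quasi-likelihood test at a Benjamini-Hochberg adjusted p under 0.05. The nearest was Sod2, the mitochondrial dismutase, 1.67-fold higher in Ang II+NaBu than in saline with an adjusted p of 0.0557. Sod2, the organiser Ncf1 and the GTPase Rac1 were higher in each Ang II+NaBu library than in each of the other 6. Of all genes tested, 18.1% were higher without overlap against Ang II and 14.5% against saline. The share above both groups at once was not counted. Rac1 levels sum 2 transcripts, and its estimates were smaller with the highest transcript alone. Cybb, the catalytic subunit of the phagocyte enzyme, differed by at most 0.07 on the log2 scale in any comparison. In bulk tissue, fewer cells of a type and less RNA per cell cannot be told apart.

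Ang II against saline asks what the hormone changed. Of the 9 genes, 0 were called by edgeR, 0 had an unadjusted p under 0.05 and 0 were called by DESeq2. Over the 15467 genes tested, edgeR called 0%, 5.94% had an unadjusted p under 0.05 and DESeq2 called 0.347%. Groups did not overlap for 1 of the 9 genes, Ncf4, which was lower in Ang II, beside 9.9% of all genes, 4.94% of them higher and 4.97% lower. The median log2 difference was 0.02 over the 9 genes and 0.00 over all genes tested.

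Ang II+NaBu against Ang II asks what NaBu added. Of the 9 genes, edgeR called 0, Sod2 alone (1 gene) had an unadjusted p under 0.05, and DESeq2 called 0. Over all genes tested edgeR called 1.6%, 0.647% higher and 0.957% lower, while 22.4% had an unadjusted p under 0.05 and DESeq2 called 13.1%. Groups did not overlap for 4 of the 9 genes (Sod2, Ncf1, Sod1 and Rac1, all higher in Ang II+NaBu), beside 35.6% of all genes, 18.1% higher and 17.5% lower. The median log2 difference was 0.10 over the 9 genes and -0.02 over all.

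In Ang II+NaBu against saline, edgeR called 0 of the 9 genes, 3 (Sod2, Nox4 and Ncf1) had an unadjusted p under 0.05, and DESeq2 called 1 (Sod2). Over all genes tested edgeR called 5.06%, 3.01% higher and 2.05% lower, while 24.6% had an unadjusted p under 0.05 and DESeq2 called 15.1%. Groups did not overlap for 3 genes with higher levels in Ang II+NaBu (Sod2, Ncf1 and Rac1), beside 14.5% of all genes in that direction, and for 1 with lower levels (Cyba), beside 14.1%, or 28.6% in either direction. The median log2 difference was -0.05 both over the 9 genes and over all. The 3 comparisons share libraries with each other, so their values are not independent.

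**Figure D1:**
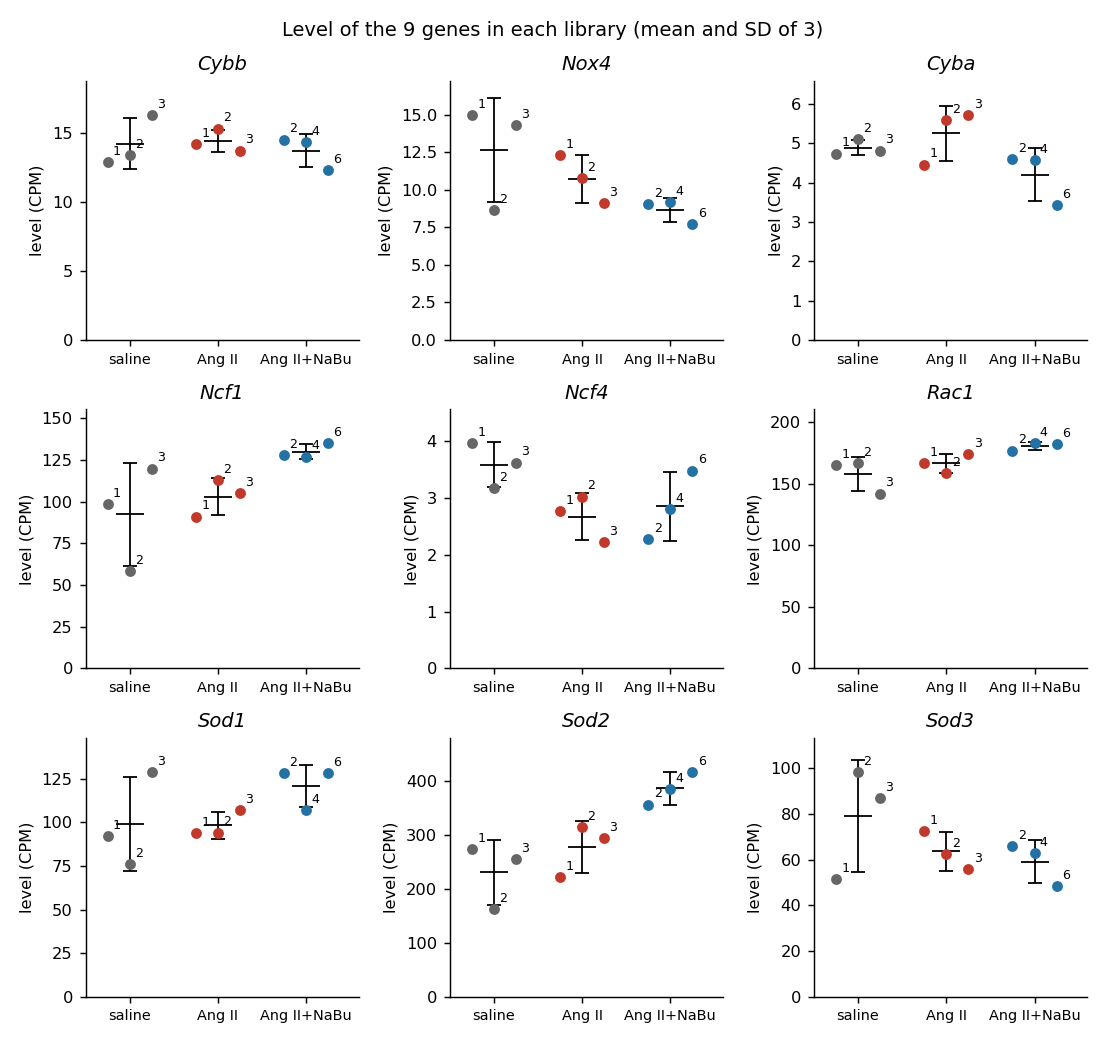
Level of each gene (CPM, y axis, from 0) in the 9 libraries by group; points are libraries with their numbers, and bars are the mean and SD of 3. Sod2 lies between 357 and 418 CPM in Ang II+NaBu, above the other 6 libraries (163 to 315 CPM), while Cybb lies between 12.3 and 16.3 CPM in all 9.

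Cybb, which carries the haem and flavin groups that move the electrons, was at 12.9, 13.4 and 16.3 CPM in saline replicates 1, 2 and 3, at 14.2, 15.3 and 13.7 CPM in Ang II replicates 1, 2 and 3, and at 14.5, 14.3 and 12.3 CPM in Ang II+NaBu libraries 2, 4 and 6. The 3 groups overlapped throughout. Group means were 14.2 ± 1.84, 14.4 ± 0.796 and 13.7 ± 1.19 CPM (SD, n = 3). The interval of the Ang II difference ran from 0.83-fold to 1.24-fold of saline (95%, edgeR).

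Nox4, the catalytic subunit that is active without the cytosolic subunits, was at 15.0, 8.67 and 14.3 CPM in saline, at 12.3, 10.8 and 9.1 CPM in Ang II and at 9.06, 9.17 and 7.74 CPM in Ang II+NaBu. Saline replicates 1 and 3 were the highest of the 9 libraries, while saline replicate 2 lay among the Ang II+NaBu values, so the groups overlapped. The estimate for Ang II+NaBu against saline was -0.55 on the log2 scale (SE 0.211, 95% interval -1.01 to -0.08), with an edgeR adjusted p of 0.148. Without saline replicate 2 the estimate was -0.74 and the edgeR adjusted p 0.043, in a fit that called 2.76% of all genes. Ang II against saline gave -0.23 (adjusted p = 0.952) and Ang II+NaBu against Ang II gave -0.31 (adjusted p = 0.415) in the same test.

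Cyba, the small membrane partner that stabilises both Cybb and Nox4, was at 4.74, 5.11 and 4.82 CPM in saline, at 4.46, 5.6 and 5.73 CPM in Ang II and at 4.6, 4.58 and 3.43 CPM in Ang II+NaBu. Each Ang II+NaBu library was below each saline library, by as little as 4.6 against 4.74 CPM, and the Ang II libraries overlapped both groups. The log2 estimates were 0.11 for Ang II against saline (edgeR adjusted p = 0.982), -0.33 for Ang II+NaBu against Ang II (adjusted p = 0.36) and -0.22 for Ang II+NaBu against saline (adjusted p = 0.536). Only 125 to 248 estimated counts per library lay behind these levels.

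Ncf1, the cytosolic organiser that brings the other cytosolic subunits to the membrane, was at 98.6, 58.5 and 119.8 CPM in saline, at 91.0, 113 and 105 CPM in Ang II and at 128, 127 and 135 CPM in Ang II+NaBu. Every Ang II+NaBu library was above every other library, and saline spanned the widest range, from the lowest value of all to one above each Ang II library. The log2 difference of Ang II+NaBu from saline was 0.50 (SE 0.212, 95% interval 0.02 to 0.97), with an edgeR adjusted p of 0.182. Without saline replicate 2 it was 0.27 (adjusted p = 0.241) and without saline replicate 3 it was 0.73 (adjusted p = 0.0553). From Ang II it was 0.33 (adjusted p = 0.385), and Ang II differed from saline by 0.16 (adjusted p = 0.972).

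Ncf4, a cytosolic subunit that binds phosphoinositides, was at 3.96, 3.17 and 3.62 CPM in saline, at 2.77, 3.02 and 2.22 CPM in Ang II and at 2.27, 2.8 and 3.48 CPM in Ang II+NaBu. Each Ang II library was below each saline library, and Ang II+NaBu overlapped both. The log2 difference of Ang II from saline was -0.42 (SE 0.252), with an edgeR adjusted p of 0.908. Its 83 to 167 estimated counts per library were the fewest of the 9 genes.

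Rac1, the small GTPase that activates the Cybb enzyme and also organises the actin cytoskeleton, was at 165, 167 and 142 CPM in saline, at 167, 159 and 174 CPM in Ang II and at 177, 183 and 182 CPM in Ang II+NaBu. The Ang II+NaBu values were the highest 3 and lay close together, with a group mean of 181 ± 3.37 CPM (SD, n = 3). The log2 differences were small, at 0.19 from saline (SE 0.0938, edgeR adjusted p = 0.233) and 0.12 from Ang II (adjusted p = 0.501), and Ang II differed from saline by 0.08 (adjusted p = 0.971). These levels sum 2 transcripts, of which the minor was uneven between libraries. With the highest transcript alone the Ang II+NaBu estimates were 0.06 against saline (edgeR adjusted p = 0.87) and 0.02 against Ang II (adjusted p = 0.976). The highest library was 1.29-fold the lowest, the narrowest range of the 9 genes.

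Sod1, the copper-zinc dismutase of the cytosol, was at 92.1, 76.1 and 129 CPM in saline, at 93.6, 94.1 and 107 CPM in Ang II and at 128, 107 and 128 CPM in Ang II+NaBu. Saline held both the lowest and the highest library, and Ang II+NaBu library 4 lay just above Ang II replicate 3, so that the Ang II+NaBu and Ang II groups did not overlap by a small margin. The log2 differences were -0.01 for Ang II against saline (edgeR adjusted p = 0.999), 0.30 for Ang II+NaBu against Ang II (adjusted p = 0.338) and 0.29 for Ang II+NaBu against saline (adjusted p = 0.339). Without saline replicate 3 the last was 0.52, with an adjusted p of 0.0421, in a fit that called 8.24% of all genes, and without saline replicate 2 it was 0.14, with an adjusted p of 0.637.

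Sod2, the manganese dismutase of mitochondria, was at 275, 163 and 256 CPM in saline, at 223, 315 and 295 CPM in Ang II and at 357, 386 and 418 CPM in Ang II+NaBu. All 3 Ang II+NaBu libraries lay above the other 6, and saline and Ang II overlapped. Group means were 231 ± 59.9 CPM in saline, 278 ± 48.3 CPM in Ang II and 387 ± 30.7 CPM in Ang II+NaBu (SD, n = 3). Against saline the log2 difference of Ang II+NaBu was 0.74 (SE 0.195, 95% interval 0.31 to 1.18), or 1.67-fold (1.24 to 2.26), with an unadjusted p of 0.00338 and an adjusted p of 0.0557 by edgeR. Against Ang II it was 0.48 (SE 0.195, 95% interval 0.05 to 0.91), with an adjusted p of 0.187, and Ang II differed from saline by 0.26 (adjusted p = 0.936). DESeq2 called the difference from saline, at 0.76 with an adjusted p of 0.0019, along with 15.1% of the genes it tested. Without saline replicate 2, edgeR called the difference from Ang II, at 0.50 with an adjusted p of 0.0447, along with 9.43% of all genes. A fit of the 2 groups alone also called that from Ang II (adjusted p = 0.0451, 11.9% of all genes called), as did edgeR without saline replicates 2 and 3 (0.0468, 10.4%), and library totals in place of TMM called that from saline (0.0473, 2.66%). Over all alternatives the adjusted p ran from 0.0019 to 0.2 for Ang II+NaBu against saline and from 0.0447 to 0.486 against Ang II. The RefSeq table also lists a pseudogene, Sod2-ps1, and reads shared with it cannot be told apart here.

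Sod3, the secreted copper-zinc dismutase, was at 51.5, 98.4 and 86.8 CPM in saline, at 72.6, 62.5 and 55.8 CPM in Ang II and at 65.8, 62.9 and 48.4 CPM in Ang II+NaBu. Saline replicates 2 and 3 were the highest of the 9 libraries and saline replicate 1 the lowest but one, so all groups overlapped. The log2 differences were -0.31 for Ang II against saline (edgeR adjusted p = 0.933), -0.11 for Ang II+NaBu against Ang II (adjusted p = 0.821) and -0.42 for Ang II+NaBu against saline (adjusted p = 0.271). Without 1 library at a time the last ranged from -0.65 to -0.21. Without saline replicates 2 and 3 together, which leaves 1 saline library, the differences from it were 0.30 for Ang II and 0.20 for Ang II+NaBu, the opposite direction.

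**Figure D2:**
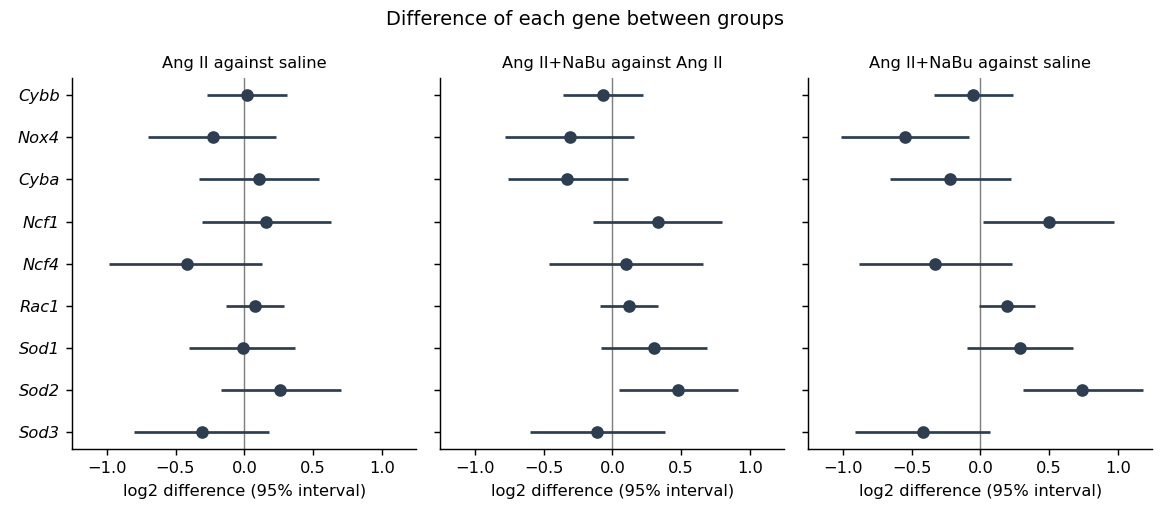
Log2 difference of each gene (x axis) with its 95% interval from edgeR, in 1 panel per comparison. The interval of Sod2 in Ang II+NaBu against saline runs from 0.31 to 1.18, and Nox4 and Ncf1 are the only other genes whose interval leaves out 0 there.

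Across the 9 libraries, the organiser Ncf1 followed the dismutases Sod1 and Sod2 and the ventricular markers. With Sod3 it correlated at -0.60 (rho -0.40), but at -0.10 without saline replicate 2. Without saline replicate 2 and Ang II replicate 1 that value was 0.16. The points of these correlations share library, scaling and group, and they are given as descriptions on the log2 scale. Pearson's r between Ncf1 and Sod2 was 0.93 (Spearman's rho 0.88), and 0.76 without the 2 libraries farthest from the median of Ncf1. Between Ncf1 and Sod1 it was 0.86 (rho 0.87), and 0.75 without those libraries. Sod1 and Sod2 correlated at 0.72, and at 0.47 without saline replicate 2. With the other subunits of the phagocyte enzyme Ncf1 correlated at 0.20 (Cybb), -0.10 (Ncf4) and -0.37 (Cyba). Sod2 and Sod3 ran in opposite directions, at -0.75, and at -0.33 without the 2 libraries farthest from the median of Sod2.

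Marker sums moved with several of these genes. The sum of 10 markers listed for ventricular cardiomyocytes was 71311, 50319 and 82437 CPM in saline, 68072 to 70329.9 CPM in Ang II and 74427 to 82322 CPM in Ang II+NaBu, so each Ang II+NaBu library was above each Ang II library. Of the list, Myl2, Myl3, Tnni3, Actc1, Ryr2 and Pln did so singly, whereas Myh6, Myh7, Tnnt2 and Mybpc3 overlapped. In saline replicate 2, Myl2 was at 240.3 CPM against 465 to 939.8 CPM elsewhere. Myh6, a large part of the sum, was at 23604 CPM there, within the 22252 to 29036 CPM of the others. The sum correlated with Ncf1 at 0.95 (0.86 without saline replicates 2 and 3), with Sod1 at 0.92 (0.92) and with Sod2 at 0.80 (0.81), although for Sod2 the value was 0.49 without saline replicate 2 alone. The sum of 15 phagocyte markers, all detected, was 429.8, 562 and 492 CPM in saline, 435 to 484 CPM in Ang II and 423 to 474 CPM in Ang II+NaBu. It correlated with Ncf1 at -0.74, a value that went to -0.17 without saline replicate 2, and with Cybb at 0.22. Sod3 went with the phagocyte sum at 0.92 (0.81 without saline replicates 2 and 3) and with the sum of 12 fibroblast markers at 0.87 (0.52). The fibroblast sum was 4240.4, 6698 and 5342 CPM in saline, 4214 to 4478 CPM in Ang II and 4070.4 to 4924 CPM in Ang II+NaBu. The sum of 11 endothelial markers was 2006 to 2327 CPM in saline, 2115 to 2399.9 CPM in Ang II and 1748 to 2048 CPM in Ang II+NaBu, below each Ang II library, and correlated with Sod2 at -0.82. The sum of 8 smooth muscle markers was 2013, 2326 and 2483 CPM in saline, 1883 to 2249 CPM in Ang II and 2723 to 3028 CPM in Ang II+NaBu, above the other 6 libraries. It correlated with Ncf1 at 0.53, Sod2 at 0.60 and Sod1 at 0.65, and without saline replicate 2 at 0.96, 0.82 and 0.81. Without Ang II+NaBu libraries 2 and 6 these were 0.30, 0.34 and 0.36. Most of that sum was Des, the desmin gene, which cardiomyocytes also express. Des was at 1191 to 1849 CPM in the other 6 libraries and 2287 to 2465 CPM in Ang II+NaBu. It alone of the list was above the other 6 libraries in every Ang II+NaBu library. The median log2 difference of the list in Ang II+NaBu went the other way, at -0.19 against Ang II and -0.72 against saline. Saline replicate 2 had the highest median log2 deviation of the list, at 1.18. In the neutrophil list of 8 genes Camp was at 0 in all libraries, and the sum ran from 18.5 to 34.7 CPM. The part of cell makeup in the levels of these genes was not tested.

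**Figure D3:**
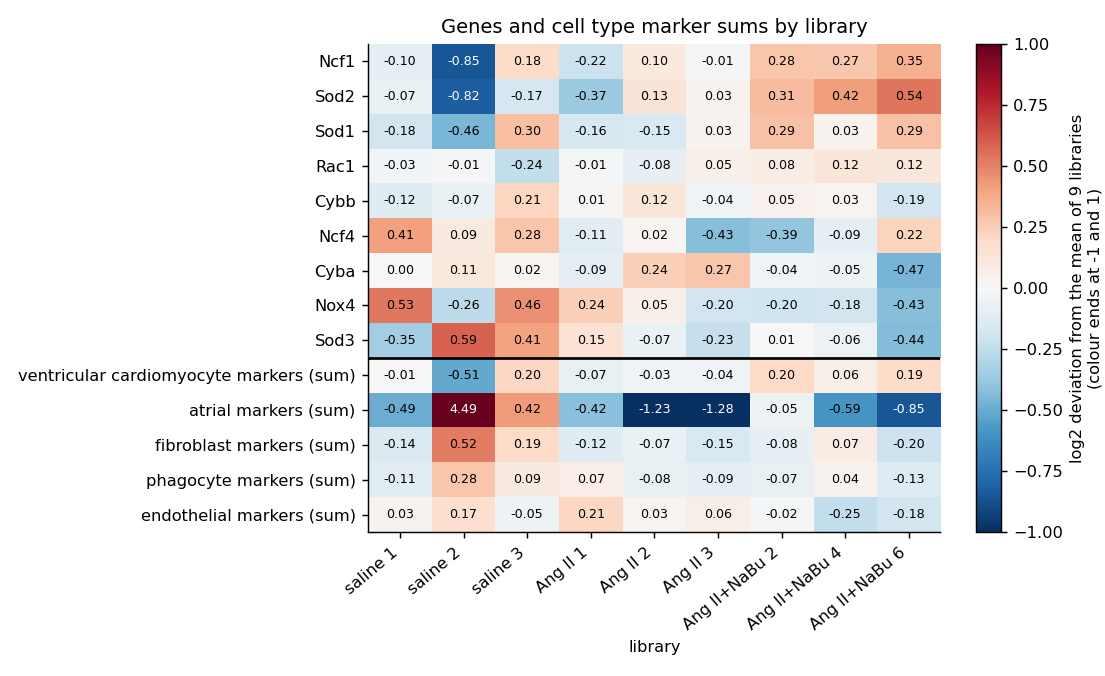
Log2 deviation of each gene and of each marker sum from its mean over the 9 libraries (colour and printed number, colour ending at -1 and 1), with libraries as columns. Saline replicate 2 holds the lowest Ncf1 (58.5 CPM), Sod1 (76.1 CPM) and Sod2 (163 CPM), the highest Sod3 (98.4 CPM) and the lowest ventricular sum (50319 CPM).

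Individual libraries carried much of the spread. Saline replicate 2 was the lowest of the 9 for Ncf1, Sod1 and Sod2 and the highest for Sod3. Ang II+NaBu library 6 was the lowest for Cyba, Cybb, Nox4 and Sod3 and the highest for Ncf1 and Sod2. From the lowest to the highest library Sod2 spanned 2.57-fold, Ncf1 2.31-fold, Sod3 2.03-fold, Nox4 1.93-fold, Ncf4 1.78-fold, Sod1 1.70-fold, Cyba 1.67-fold and Cybb 1.32-fold.

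Ratios of a pair of genes within a library do not depend on the scaling between libraries. Sod2 per Nox4 was 18.4, 18.8 and 17.9 in saline, 18.1, 29.2 and 32.4 in Ang II and 39.4, 42.1 and 54.0 in Ang II+NaBu. The 3 saline ratios lay within a narrow range although both genes were low in saline replicate 2, and each Ang II+NaBu ratio was above the other 6. Sod2 per Sod3 was 5.34, 1.66 and 2.95 in saline, 3.07, 5.04 and 5.29 in Ang II and 5.43, 6.14 and 8.65 in Ang II+NaBu. Here too each Ang II+NaBu ratio was above the other 6, by a small margin over saline replicate 1. Sod2 per Ncf1 varied least of the ratios computed, from 2.14 to 3.09 over all libraries. These ratios were chosen with the levels known and carry no test, and an exact permutation test of 3 against 3 could not go below a two-sided p of 0.1.

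The deposited tables list 5 Nox4 transcripts, and the counts assigned to them swung between libraries in every group. The transcript with the largest share, XM_008759642.1 at 41.7% of Nox4 counts, had 382, 228 and 235 estimated counts in saline, 0, 106 and 139 in Ang II and 248, 90 and 0 in Ang II+NaBu. The RefSeq transcript NM_053524.1, at 20.0%, was at 0 in 3 libraries, and XM_008759643.2, at 27.4%, alone was above 0 in all 9. The sum over transcripts was steadier, from 326 to 499 estimated counts, and is what the levels above rest on. With the highest transcript alone the Nox4 estimate for Ang II+NaBu against Ang II was 0.52 with an SE of 1.81, the opposite sign. For Rac1, the transcript NM_134366.1 had 15 to 25 estimated counts in 6 libraries and 584, 1022 and 1083 in Ang II replicate 1 and Ang II+NaBu libraries 4 and 6, while it made up 4.97% of all Rac1 counts. The smaller Rac1 estimates with the highest transcript alone, given above, leave this transcript out. For Ncf4, the main transcript (77.9% of counts) was at 0 in Ang II+NaBu library 2, where the other transcript held all 83 estimated counts.

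**Figure D4:**
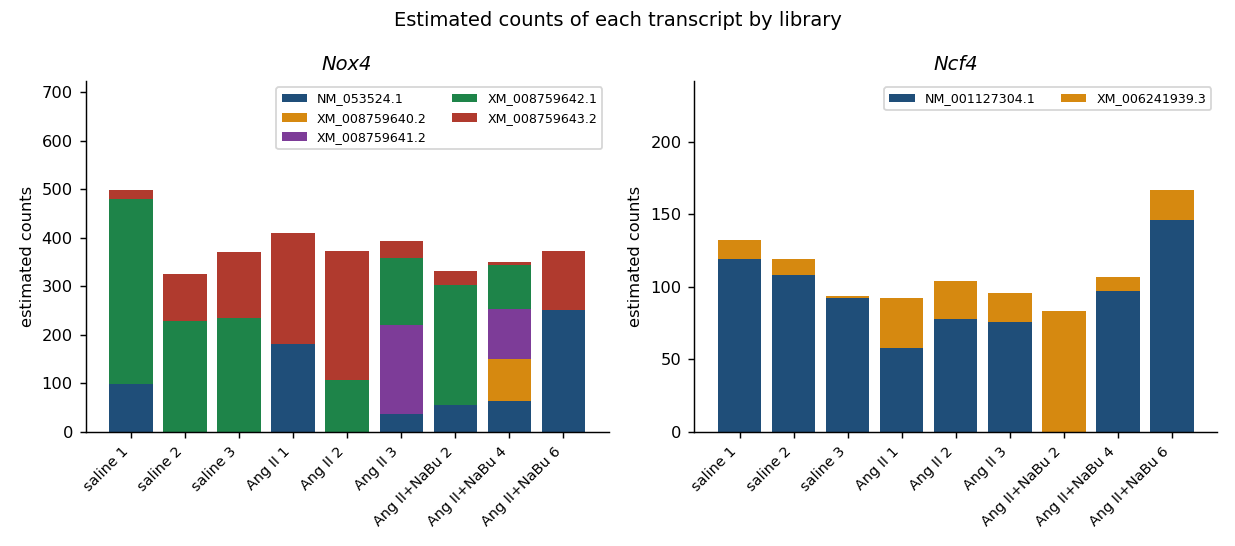
Estimated counts (y axis) by library, stacked by transcript, for Nox4 and Ncf4. The Nox4 totals stay between 326 and 499 while the share of each transcript changes from library to library, and the main Ncf4 transcript is at 0 in Ang II+NaBu library 2.

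Of 15 further genes of the oxidase complex, 10 passed the filter on low counts, and none was called in any comparison. Poldip2, which binds Cyba and raises Nox4 activity, had the highest estimate of the list for Ang II+NaBu against Ang II, at 0.60 (SE 0.190, edgeR adjusted p = 0.112). Its levels were 107, 70.2 and 129 CPM in saline, 97.3, 121 and 119 CPM in Ang II and 180.4, 161 and 168 CPM in Ang II+NaBu, which lay above the other 6. At the lower end stood the GTPase Rac3, at -1.13 (adjusted p = 0.491) from levels of at most 1.6 CPM. The highest for Ang II against saline was Duox2, a dual oxidase, at 1.00 (SE 1.38, adjusted p = 0.974) from at most 0.61 CPM. The highest and the lowest for Ang II+NaBu against saline were Duox2, at 1.47 (adjusted p = 0.554), and Rac3, at -1.33 (adjusted p = 0.392).

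Among 15 regulators of the oxidase, 1 rose in Ang II+NaBu against saline and none fell, beside 3.01% and 2.05% of all genes tested, and none was called in the other comparisons. It was Rap1a, a small GTPase found with the Cybb enzyme in neutrophil membranes, at 119 ± 4.27 CPM against 82.6 ± 5.99 CPM (SD, n = 3), which is 0.53 higher on the log2 scale (SE 0.0925, edgeR adjusted p = 0.0206). The call was lost in 7 of 17 alternatives, among them each removal of 1 Ang II+NaBu library, with adjusted p from 3.94e-06 to 0.108. The kinase Src, which phosphorylates oxidase regulators, had the lowest estimate against Ang II, at -0.91 (SE 0.305, adjusted p = 0.124), and Tiam1, an exchange factor for Rac1, the highest, at 0.56 (adjusted p = 0.425). For Ang II against saline the ends were the kinase Prkce, at 0.26 (adjusted p = 0.829), and Tiam1, at -0.68 (adjusted p = 0.894). The lowest against saline in Ang II+NaBu was the kinase Prkcz, at -0.76 (adjusted p = 0.225).

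Of 10 genes that carry or pump copper or manganese, not all of them towards the dismutases, 9 passed the filter and none was called. Ccs, the copper chaperone of Sod1, was at 7.11 to 10.5 CPM over all libraries. Slc31a1, the copper importer, had the highest estimates in Ang II+NaBu, at 0.47 against Ang II (SE 0.156, edgeR adjusted p = 0.123) and 0.42 against saline (adjusted p = 0.134). The lowest were Slc39a8, a manganese and zinc importer, at -0.46 against Ang II (adjusted p = 0.359), and Atp7b, a copper pump, at -1.03 against saline (adjusted p = 0.27). For Ang II against saline the ends were the copper chaperone Atox1, at 0.19 (adjusted p = 0.947), and Atp7b, at -0.95 (adjusted p = 0.895).

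A list of 12 genes, all tested, held other sources of superoxide and nitric oxide together with genes that are not sources of either themselves. Gch1 makes a cofactor of nitric oxide synthases, Ddah1 and Ddah2 clear their inhibitors, and Ucp2 and Ucp3 are uncoupling carriers of mitochondria. Maoa and Maob, the monoamine oxidases, are not sources of either. In Ang II+NaBu against saline 1 rose and none fell, beside 3.01% and 2.05% of all genes. It was Ucp3, one of the carriers and not a source, at 20.2 ± 0.892 CPM against 11.4 ± 0.264 CPM (SD, n = 3), which is 0.82 higher on the log2 scale (SE 0.14, edgeR adjusted p = 0.0201). The call was lost in 6 of 17 alternatives, with adjusted p from 4.32e-05 to 0.104. Nos2, the inducible nitric oxide synthase, had the highest estimate against Ang II, at 3.14 (SE 1.26, adjusted p = 0.182), and was at 1.4, 2.41 and 1.39 CPM in Ang II+NaBu against at most 0.277 CPM in Ang II, but at 2.53 CPM in saline replicate 2. Xdh, xanthine dehydrogenase, was the lowest there, at -0.30 (SE 0.0929, adjusted p = 0.11). Nos1, the neuronal nitric oxide synthase, was the lowest against saline, at -2.51 in Ang II (adjusted p = 0.713) and -1.30 in Ang II+NaBu (adjusted p = 0.227), with an uneven saline mean of 3.62 ± 3.73 CPM. The highest against saline were Ucp3 in Ang II, at 0.29 (adjusted p = 0.859), and Nos2 in Ang II+NaBu, at 0.89 (adjusted p = 0.674).

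Of 15 genes of the NRF2 response, the programme of antioxidant genes that the factor Nfe2l2 drives, 2 rose in Ang II+NaBu against saline and none fell, beside 3.01% and 2.05% of all genes. Me1, malic enzyme, which makes NADPH in the cytosol, was at 162 ± 16.1 CPM against 85.2 ± 16.2 CPM (SD, n = 3), which is 0.93 higher on the log2 scale (SE 0.15, edgeR adjusted p = 0.0181). Txnrd1, which reduces thioredoxin with NADPH, was at 69.1 ± 4.29 CPM against 53.1 ± 4.01 CPM, a difference of 0.38 (SE 0.0938, adjusted p = 0.0472). The Me1 call was lost in 5 of 17 alternatives and the Txnrd1 call in 14. Against Ang II, Me1 was the highest of the list, at 0.63 with an adjusted p of 0.0635. Mafg was the lowest, at -0.54 (adjusted p = 0.0895), as it was in Ang II+NaBu against saline at -0.51 (adjusted p = 0.0783). For Ang II against saline the ends were the cystine transporter Slc7a11, at 1.09 (SE 1.09, adjusted p = 0.961), and haem oxygenase Hmox1, at -0.50 (adjusted p = 0.908). The median log2 difference of the list against saline was 0.13 in Ang II+NaBu, beside -0.05 over all genes tested, and the medians of the other 4 lists there lay between -0.19 and -0.09.

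**Figure D5:**
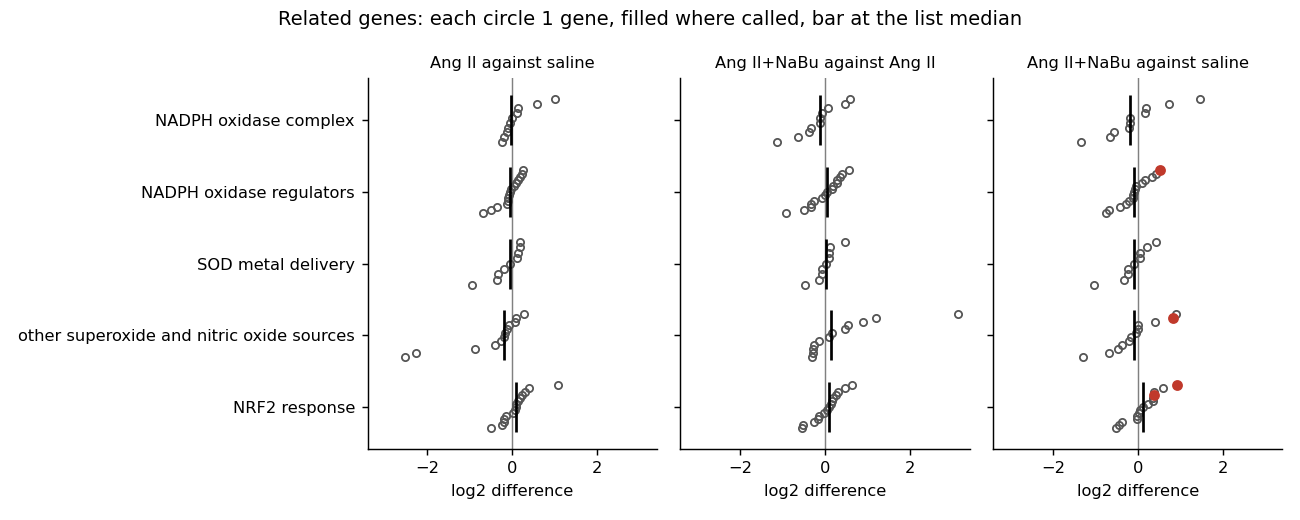
Log2 difference (x axis) of every tested gene of the 5 lists of related genes in each comparison; filled circles are called genes and the bar is the list median. The called genes are Rap1a (0.53), Ucp3 (0.82), Me1 (0.93) and Txnrd1 (0.38), all in Ang II+NaBu against saline.

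The genes whose levels were most like those of each gene across the 9 libraries were found among 10154 candidates with a mean of at least 5 CPM. For Ncf1 they were Rtn4ip1, a mitochondrial protein (r = 0.993), Myl3, the ventricular myosin light chain (0.992), and Acadm, an enzyme of fatty acid oxidation (0.989). For Sod2 they were Ppp1r14c (0.992), Lbh (0.99) and Pptc7, a mitochondrial phosphatase (0.99). Sod1 was most like Rab4a (0.975), Ino80c (0.973) and Cdc34 (0.973), and Sod3 most like Sulf1, an extracellular sulfatase (0.979), Nfkbiz (0.964) and Igfbp6 (0.952). Nox4 was nearest to Immp2l (0.97), Rps6kl1 (0.96) and Mtcl1 (0.943), and Rac1 to Mob1b (0.972), Pum2 (0.962) and Ppp2cb (0.962). The nearest genes were Apmap (0.954), Fancl (0.93) and RT1-CE3 (0.906) for Cyba, Lrpap1 (0.912), Cdk5 (0.891) and Ssc5d (0.882) for Cybb, and Pxdc1 (0.936), Ddx49 (0.869) and Wdr3 (0.864) for Ncf4. The highest of many candidates over 9 libraries is high by choice, so these values describe the libraries alone.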

How the data were processed

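RNA of the left ventricle was sequenced in 9 libraries, 3 per group. Per the file headers, the authors gave a separate table for each group, in which every transcript has its estimated count in each library. In the deposited saline table of estimated counts a stray line-end character was stripped from the last column. Per the submitters' processing notes, Bowtie 0.12.2 and the build mm8, a mouse build, were used. Transcripts carry rat RefSeq IDs. For the counting tool, the annotation and strand, nothing is given in the sources used here. Each table holds 1 group, so table and group cannot be told apart. All values were whole numbers, so rounding changed nothing, and 52.9% to 56.4% of values from 1 to 40 were a multiple of 4 or 1 above it, against 50% if spread evenly. The Ang II+NaBu columns, numbered 2, 4 and 6, match no title numbers as a set and were assigned to the group only.

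Transcripts were summed by gene name (55767 transcripts, 22608 genes). Differences between groups come from the quasi-likelihood test of edgeR 4.0.16 (TMM factors 0.887 to 1.14, filterByExpr, prior count 0.125) in R 4.3.3 with limma 3.58.1, with all 3 groups in 1 fit. This left 15467 genes with a common biological coefficient of variation of 0.256. Genes with a Benjamini-Hochberg adjusted p under 0.05 over all genes tested were called. DESeq2 1.42.0, other scalings, no filter, counts divided by 4, fits of the compared groups alone, the highest transcript alone, libraries left out and a replicate block were alternatives. On simulated counts of 15467 genes edgeR found 20.9% of 67 planted changes of 1.5-fold in Ang II+NaBu against saline. It found 76.1% of 67 of 2-fold there, with 7 false calls. At 1.5-fold it found 11.9% of 67 in Ang II against saline and 19.4% of 67 in Ang II+NaBu against Ang II. Changes were planted only in genes with a mean of at least 5 CPM, which leaves out Ncf4 and Cyba.

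The 9 genes, the lists of related genes and the cell type markers were chosen with earlier results of these data known. Named genes are the 9, the called genes of each list, the genes at both ends of a list in each comparison and the 3 genes most like each of the 9 by Pearson's r of log2(CPM + 0.5). Ccs and the genes beside Ncf1 were named after their values were seen. A gene that the rule names is not reported here. The gene Cybc1 was matched by accession, and all 170 listed genes were found. The labels do not say whether the numbers of saline and Ang II libraries pair them, and the main fit used no pairing.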

Additional observations from a re-analysis of the deposited data

How the results depend on the processing

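Under every alternative run, Ang II against saline called 0 of the 9 genes. Sod2 was the gene that came nearest to a call or passed it: 1 of the 9 genes was called for Ang II+NaBu against saline with library totals (Sod2 at 0.72, adjusted p = 0.0473) and with DESeq2 (0.76, 0.0019), and 1 for Ang II+NaBu against Ang II with only the compared groups fitted (0.48, 0.0451) and without saline replicates 2 and 3 together (0.48, 0.0468). Leaving out 1 library at a time gave 0 to 0, 0 to 1 and 0 to 1 of the 9 genes for Ang II against saline, Ang II+NaBu against Ang II (Sod2 without saline replicate 2) and Ang II+NaBu against saline (Nox4 without saline replicate 2, Sod1 without saline replicate 3). The calls among all genes, 0, 248 and 782 in that order, went to 60, 1544 and 1994 with DESeq2, to 1, 1802 and 9 with only the compared groups fitted, to 3, 5 and 21 with the highest transcript alone, and to 11, 1695 and 109 without saline replicates 2 and 3 together. That last fit leaves 1 saline library, assumed to vary like the other groups, so its values against saline rest on that library. With library totals they were 4 for Ang II+NaBu against Ang II and 411 against saline, and without 1 library 0 to 7, 1 to 1482 and 6 to 1303. Library totals moved the median of all genes from -0.02 to -0.13 and from -0.05 to -0.11 in the comparisons of Ang II+NaBu with Ang II and saline. Some uncalled estimates changed sign: for Ang II against saline Sod1 was at 0.07 with library totals and 0.09 without saline replicates 2 and 3, and Sod3 at 0.30 without them; for Ang II+NaBu against Ang II Nox4 was at 0.52 and Ncf4 at -0.06 with the highest transcript, and Ncf4 at -0.01 with library totals; for Ang II+NaBu against saline Cybb was at 0.09 and Sod3 at 0.20 without saline replicates 2 and 3. Without 1 library, for Ang II against saline Cybb ranged from -0.04 to 0.13, Ncf1 from -0.08 to 0.39 and Sod1 from -0.17 to 0.22, for Ang II+NaBu against Ang II Cybb from -0.11 to 0.00, Ncf4 from -0.07 to 0.24 and Sod3 from -0.19 to 0.02, and for Ang II+NaBu against saline Cybb from -0.11 to 0.06. In that comparison Ncf1 kept its sign and ranged from 0.27 to 0.73, and Sod1 from 0.14 to 0.52. The cause was not tested. A fit with the replicate number as a block, possible for saline and Ang II alone, called 0 genes and 0 of the 9, with Sod1 at 0.02. Same-numbered libraries deviated with correlations of -0.004, -0.033 and 0.008. The labels do not say whether these libraries were paired, and such values from 3 libraries per group cannot show that they were not. The Ang II+NaBu titles are numbered 1 to 3 but its columns 2, 4 and 6, so its columns could not be matched to titles and no block was fitted with that group. Ncf4 and Cyba rest on the fewest estimated counts, 83 to 167 and 125 to 248 per library.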

Other observations

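Among 5 genes near Ncf1 in the RefSeq order, the correlation with Ncf1 over the 9 libraries ran from -0.66 to 0.63. Gtf2i, a transcription factor gene, was at 165 to 171 CPM in saline, 163 to 172 CPM in Ang II and 179 to 188 CPM in Ang II+NaBu, above the other 6 libraries as for Ncf1, and correlated with Ncf1 at 0.59. Rcc1l correlated with Ncf1 at 0.63 and, like Ncf1, was lowest in saline replicate 2, at 11.5 CPM. Castor2 correlated at -0.38, Gtf2ird1 at -0.32 and Gtf2ird2 at -0.66. These values are descriptions. Saline replicate 2, at 58.5 CPM the lowest library for Ncf1, was at 168 CPM for Gtf2i.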
